A study of Mus musculus with 6 samples.

Results

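The Notch pathway was examined through 10 genes of differentiating C2C12 cells: the receptors *Notch1*, *Notch2* and *Notch3*, the ligands *Dll1*, *Jag1* and *Jag2*, the nuclear effector *Rbpj*, and the target genes *Hes1*, *Hey1* and *Heyl*. They were chosen by name, and each of the 10 matched a single row among the 46078 genes of the count table. C2C12 is an immortalized line of mouse myoblasts that withdraw from the cell cycle and fuse into myotubes once serum is removed. The series compared *Hnrnpa2b1* KO with WT cells, with 3 libraries of each genotype, called KO1–KO3 and WT1–WT3, all from cells differentiated for 2 days by serum withdrawal and ITS (insulin, transferrin and selenium). *Hnrnpa2b1* encodes an RNA-binding protein that regulates splicing. KO cells had received Cas9 and a guide RNA against *Hnrnpa2b1* from a plasmid with puromycin selection, and the study's description of its Western blot names control cells given a scrambled guide. The methods describe 3 independent clones of each genotype isolated with cloning rings, and the labels do not say which clone each library came from, so the tests measure the spread between these libraries.

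Notch is a receptor through which neighbouring cells signal to each other by contact. Binding of a ligand of the Delta or Jagged family on an adjacent cell leads to cleavage of the receptor, first outside the membrane by an ADAM protease and then within it by gamma-secretase, and the freed intracellular domain joins the DNA-binding protein RBPJ in the nucleus to switch on repressors of the Hes and Hey families. In the muscle lineage, Notch signalling is known for maintaining muscle stem cells and for holding back differentiation of myoblasts. The transcripts measured here report the components and targets of the pathway, not the cleaved receptor.

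Sequences upstream of the start sites were taken from RefSeq (GRCm38.p6), where 7 of the 10 genes had 9 windows, and *Hes1*, *Hey1* and *Heyl* had none. Each sequence below holds the 250 bases before an annotated start site, 5′ to 3′ on the strand of the gene, and capitals mark matches on either strand to GGGCGG, the letters of the GC box bound by SP1, or to TGGGAA, the core letters bound by RBPJ. The 3 receptors are shown because each had a higher mean in KO and their windows share the GC box. Neither was particular to them, as 9 of the 10 members had a higher mean, and the window of *Jag2*, not shown, also held the GC box. *Rbpj* is shown because it alone among the 7 genes held TGGGAA.
Notch1, chr2:26503823-26504072, minus strand: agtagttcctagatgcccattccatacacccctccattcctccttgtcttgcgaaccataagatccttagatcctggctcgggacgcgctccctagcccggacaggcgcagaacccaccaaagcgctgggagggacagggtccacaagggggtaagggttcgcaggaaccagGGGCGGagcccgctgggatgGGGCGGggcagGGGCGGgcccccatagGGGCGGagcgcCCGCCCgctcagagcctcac
Notch2, chr3:98013288-98013537, plus strand: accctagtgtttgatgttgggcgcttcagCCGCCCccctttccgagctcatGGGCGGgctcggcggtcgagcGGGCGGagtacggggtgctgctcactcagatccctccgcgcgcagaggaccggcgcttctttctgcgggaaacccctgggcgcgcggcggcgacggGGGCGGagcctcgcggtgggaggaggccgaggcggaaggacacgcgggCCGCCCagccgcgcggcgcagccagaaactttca
Notch3, chr17:32166891-32167140, minus strand: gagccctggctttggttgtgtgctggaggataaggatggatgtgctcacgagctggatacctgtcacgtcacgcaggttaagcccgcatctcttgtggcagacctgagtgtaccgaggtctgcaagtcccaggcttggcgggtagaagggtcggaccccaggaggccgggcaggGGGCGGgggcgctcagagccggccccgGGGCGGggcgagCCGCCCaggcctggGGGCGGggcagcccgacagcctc
Rbpj, chr5:53590096-53590345, plus strand: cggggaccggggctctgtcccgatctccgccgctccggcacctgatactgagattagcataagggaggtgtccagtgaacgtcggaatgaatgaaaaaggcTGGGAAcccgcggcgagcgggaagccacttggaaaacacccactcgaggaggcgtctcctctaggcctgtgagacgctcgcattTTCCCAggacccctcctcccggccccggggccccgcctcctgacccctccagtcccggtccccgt

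The windows of *Notch1* and *Notch2* each held 5 matches to GGGCGG and that of *Notch3* held 4. Of all 32851 RefSeq windows of the same length, 32.7% held at least 1. *Jag2* also had 5 matches, some overlapping, whereas *Dll1*, *Jag1* and *Rbpj* had none. TGGGAA occurred 149 and 65 bases before the start site in the first window of *Rbpj*, and the second of these lies 205 bases before the start site of its second window. It was found in 21.6% of all windows. CAGCTG, an E-box of the kind bound by MyoD, was searched as well and occurred once each in a window of *Dll1* and the window of *Jag1*, against 13.0% of all windows. The windows of the 7 genes held between 56.0% and 87.2% G and C, where the median of all windows was 52.4%. These matches are descriptions of the letters, and binding was not measured.

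The libraries held from 33605258 (WT) to 40558740 (KO) reads assigned to genes. CPM denotes counts divided by library size after TMM scaling (trimmed mean of M-values, which centres most genes on no change). No member had fewer than 531 reads in any library, a count whose 95% Poisson interval of 487 to 578 covers counting error only. *Hnrnpa2b1* itself had 225, 229 and 252 CPM across WT1–WT3, compared with 159, 195 and 249 across KO1–KO3, with overlap, and counts over a whole gene do not test for a small edit, so that the genotypes rest on the labels. Per the methods, loss of the protein in the KO clones was checked on Western blots and by immunofluorescence (not analysed here). Muscle identity was checked on marker genes: all 11 myotube genes were expressed, at a summed level of 19088, 7449 and 6814 CPM for KO1, KO2 and KO3, against 13182 to 17676 in WT, with 2 of the genes called lower in KO, 4 with every KO library below every WT library, and none called higher. The 2 called lower were *Mef2c* (log2 fold change −4.40, SE 0.95, adjusted p = 0.0169) and *Myl1* (−2.39, SE 0.61, adjusted p = 0.0297). *Myh3* and *Myh8* were the others with every KO library lower. Of all genes tested, 10.6% were called lower, and 21.6% had every KO library below every WT library. *Myog*, the regulator of terminal differentiation, did not pass the test (log2 fold change 0.06, SE 0.24, adjusted p = 0.863). Of 7 myoblast genes, *Pax7*, *Myod1* and *Cdh15* rose and *Myf5* fell. Of 7 endothelial genes the sum was 0.224 to 0.779 CPM in KO and 1.21 to 2.10 in WT, with *Pecam1* at most 0.0809 CPM. Of these, *Kdr* was called lower in KO (log2 fold change −2.15, SE 0.59, adjusted p = 0.0363). The 7 immune genes summed to 5.66 to 7.02 CPM in KO and 3.05 to 3.76 in WT, with *Ptprc* at most 0.135 CPM. Of these, *Cd14* was called higher in KO (1.51, SE 0.31, adjusted p = 0.0139). Among 7 genes of mural cells, which are known for *Notch3* and *Heyl*, the defining *Rgs5* and *Kcnj8* stayed at or under 0.195 CPM, and the sum ranged over 343 to 1060 CPM in KO and 191 to 272 in WT. The list went both ways, as *Pdgfrb* rose (log2 fold change 2.32, SE 0.46, adjusted p = 0.0123) whereas *Abcc9* (−4.57, SE 0.92, adjusted p = 0.0133) and *Mcam* (−1.18, SE 0.23, adjusted p = 0.0119) fell. Fibroblast genes summed to 102 to 177 CPM in KO and 22.8 to 34.4 in WT, and 4 of the 5 tested rose, beside 12.1% of all genes. These were *Dpt* (log2 fold change 5.88, SE 0.95), *Ly6a* (2.76, SE 0.32), *Pi16* (2.45, SE 0.53) and *Pdgfra* (1.17, SE 0.29). *Dcn* did not pass (1.54, SE 0.94, adjusted p = 0.259), and *Tcf21* was at 0 in every library. The part of these levels in the results on the Notch genes was not tested, and in RNA from whole cultures, fewer cells of a type and less RNA per cell cannot be told apart.

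Of the 10 members, 2 were differentially expressed between KO and WT and 8 were not, at an adjusted p under 0.05 (edgeR's quasi-likelihood test, Benjamini-Hochberg over 14828 genes). *Notch2* and *Hes1* rose, both to nearly double the WT level, and no member fell. All 10 passed the filter on low counts. The share called, 20%, compares with 22.7% of all genes tested, and the share called higher with 12.1%. In 3 members (30%), *Notch2*, *Notch3* and *Hes1*, every KO library was above every WT library, and in none was every KO library lower. The libraries did not overlap for 44.3% of all genes tested, with KO higher in 22.7% of all. The fold change was above 1 for 9 of the 10 members, with *Rbpj* the exception, and for 52.3% of all genes. The median log2 fold change was 0.47 over the members and 0.03 over all genes.

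**Figure D1:**
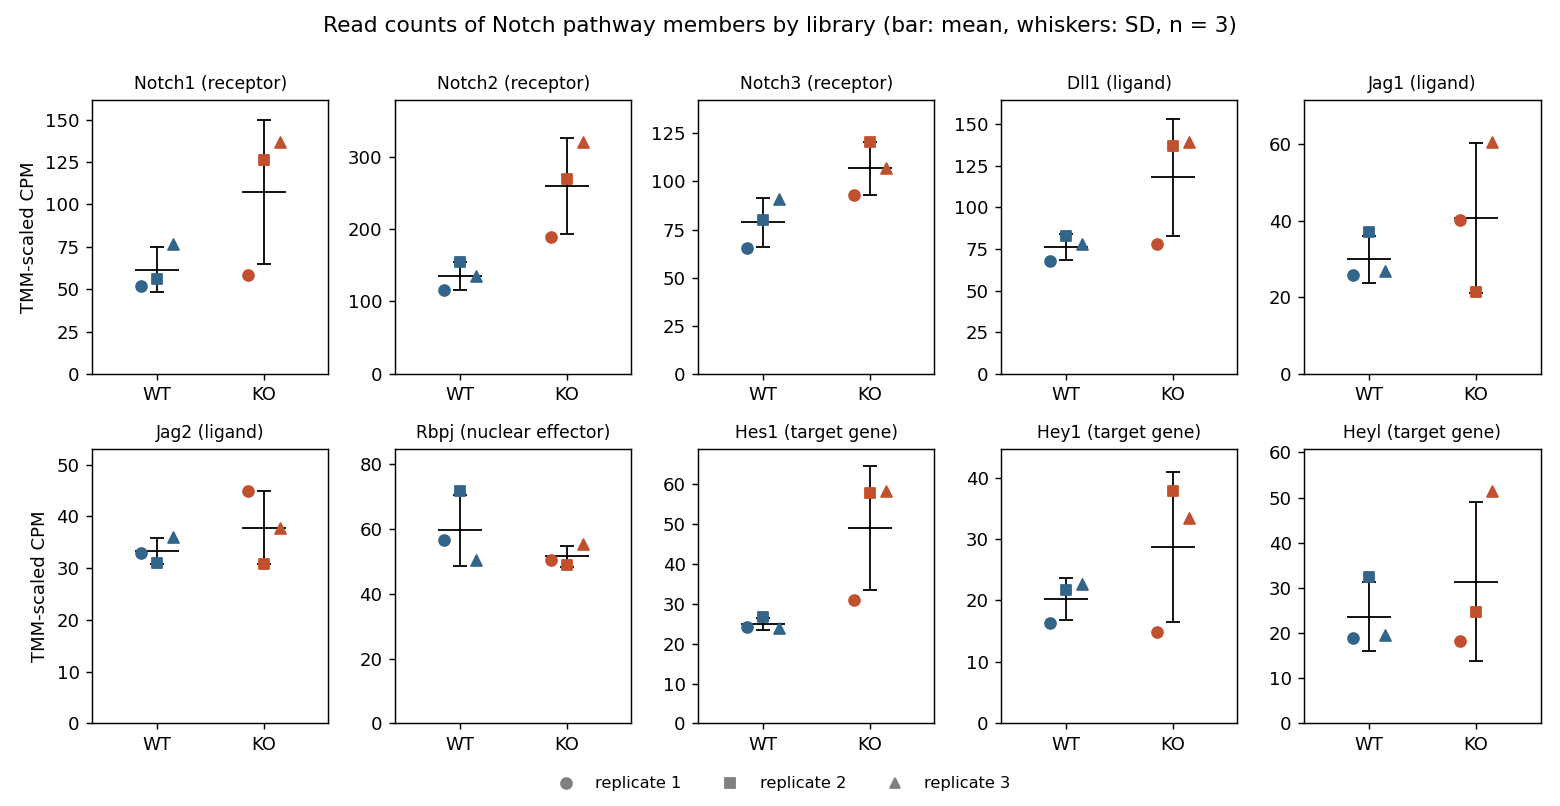
Read counts of the 10 members in each library, in CPM scaled by TMM (vertical axes from 0, 1 panel a gene), with WT in blue and KO in red, a bar for the mean and whiskers for the SD of 3 libraries. KO and WT do not overlap for *Notch2*, *Notch3* and *Hes1*, and KO1 (circle) lies below KO2 and KO3 for *Notch1*, *Dll1*, *Hes1* and *Hey1*.

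*Notch2* (ENSMUSG00000027878, chr3:98013527-98150361 on GRCm38, as are all positions) was the only receptor that passed the test. It had 189, 269 and 321 CPM across KO1–KO3, while WT1–WT3 had 116, 154 and 135. The lowest KO library was above the highest WT library. The means were 259 ± 66.6 CPM for KO against 135 ± 19.3 CPM for WT (SD, n = 3 each), a ratio of 1.92 and a log2 fold change of 0.94 (SE 0.21, 95% interval 0.45 to 1.44, adjusted p = 0.0198). An exact two-sided permutation test gave p = 0.1, the smallest that 3 libraries against 3 allow. The call was lost without KO3 (adjusted p = 0.0512), WT1 (0.0966) or WT3 (0.0817), where the log2 fold change lay between 0.77 and 0.92. Over 14 alternatives the adjusted p of *Notch2* ranged from 6.95e-05 to 0.0966.

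*Notch1* (ENSMUSG00000026923, chr2:26457903-26516663), the receptor whose cleavage is best known in myoblasts, had 51.9, 56.0 and 76.9 CPM across WT1–WT3, compared with 58.5, 126 and 137 across KO1–KO3. KO2 and KO3 were above all WT libraries, and KO1 lay within the WT range. Its log2 fold change was 0.80 (SE 0.31, 95% interval 0.08 to 1.52, adjusted p = 0.0996) and did not pass the threshold. Without KO1 it was 1.09 and passed (adjusted p = 0.00396). *Notch3* (ENSMUSG00000038146, chr17:32120820-32166880), which in other tissues marks mural cells, had 93.1, 121 and 107 CPM across KO1–KO3, while WT1–WT3 had 65.5, 79.8 and 91.0. The genotypes did not overlap, but the lowest KO library (93.1 CPM) was close to the highest WT library (91.0 CPM). The log2 fold change of *Notch3* was 0.44 (SE 0.16, 95% interval 0.07 to 0.82, adjusted p = 0.0854), and 0.53 without KO1 (adjusted p = 0.0436).

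Levels can be compared between genes in TPM, which StringTie corrects for transcript length. The summed TPM of the 3 receptors was 23.5, 38.9 and 50.1 for KO1, KO2 and KO3, and 18.4, 23.2 and 22.4 for the WT libraries, so that KO1 was just above the WT libraries and KO3 more than double their mean of 21.3. *Notch2* was the highest receptor in every library and made up 48.1% ± 2.41 of this sum for KO against 43.6% ± 4.27 for WT (SD, n = 3 each), with overlap. The share of *Notch3* was 31.3%, 26.0% and 21.2% for KO1, KO2 and KO3, against 31.3% to 33.3% in WT. Every KO library had a smaller *Notch3* share than every WT library, although KO1 and the lowest WT library differed only beyond the first decimal.

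None of the ligands passed the threshold. *Dll1* (ENSMUSG00000014773, chr17:15367354-15376872), the Delta ligand known for maintaining myogenic progenitors, had 67.7, 82.6 and 78.0 CPM across WT1–WT3, compared with 77.6, 137 and 139 across KO1–KO3. KO2 and KO3 stood above all WT libraries and KO1 lay among them. Its log2 fold change was 0.63 (SE 0.23, 95% interval 0.11 to 1.15, adjusted p = 0.0784), and 0.85 without KO1 (adjusted p = 0.00323).

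*Jag1* (ENSMUSG00000027276, chr2:137081456-137116644), a Jagged ligand, was the most uneven of the ligands in KO, with 40.1, 21.3 and 60.6 CPM across KO1–KO3, while WT1–WT3 had 25.9, 37.0 and 26.8. KO2 was below every WT library and KO3 above every one. The log2 fold change of 0.44 (SE 0.34, 95% interval −0.35 to 1.24, adjusted p = 0.376) was within the spread between replicates and moved to 0.04 without KO3 and 0.76 without KO2 (adjusted p = 0.0646). *Jag2* (ENSMUSG00000002799, chr12:112908590-112929495), the other Jagged ligand, had 32.9, 30.9 and 36.0 CPM across WT1–WT3, compared with 44.9, 30.7 and 37.7 across KO1–KO3, and the genotypes overlapped. Its log2 fold change was 0.18 (SE 0.16, 95% interval −0.19 to 0.56, adjusted p = 0.439), with 0.0355 without KO1 and 0.32 without KO2.

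*Jag2* lies in a stretch where most genes tested had a fold change above 1, and the part of this in its value was not tested. Between 110 and 120 Mb of chromosome 12, 81.8% of the 66 other genes tested had a fold change above 1, with a median log2 fold change of 0.39 and medians of 0.35, 0.34 and 0.35 for KO1, KO2 and KO3 against the WT mean. *Jag2* was 0.21 below that median, and with the median of each 10 Mb stretch removed as an offset its log2 fold change turned to −0.20 (adjusted p = 0.399). For the other 9 members the median of the surrounding stretch lay between 0.00 and 0.08. DNA copies of this stretch were not measured.

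In TPM, *Dll1* was the highest of the 3 ligands in every library. It took 58.7%, 80.5% and 70.1% of their summed TPM for KO1, KO2 and KO3, against 64.3% to 66.8% in WT. KO1 was below and KO2 and KO3 above the WT shares. The sum was 26.8, 37.2 and 51.3 TPM for KO1, KO2 and KO3, against 24.3 to 29.8 in WT, with KO1 inside the WT range.

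*Rbpj* (ENSMUSG00000039191, chr5:53466152-53657362), the DNA-binding partner of cleaved Notch, was the sole member with a lower mean in KO, and it did not pass the threshold. It had 50.4, 49.1 and 55.4 CPM across KO1–KO3, while WT1–WT3 had 56.7, 71.7 and 50.3. The libraries of the genotypes overlapped. The log2 fold change was −0.21 (SE 0.15, 95% interval −0.56 to 0.15, adjusted p = 0.354), and it stayed below 0 with each library left out, between −0.34 and −0.06. Relative to its mean, *Rbpj* also varied least of the members between KO libraries, with an SD of 3.32 CPM around 51.6 CPM.

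Among the target genes, *Hes1* (ENSMUSG00000022528, chr16:30064384-30067796), a basic helix-loop-helix repressor switched on by Notch in many cell types, was the only one that passed the test. It had 24.3, 26.8 and 24.0 CPM across WT1–WT3, compared with 30.9, 57.8 and 58.3 across KO1–KO3. The WT libraries lay close together, KO1 was just above them, and KO2 and KO3 were over double the WT mean. The means were 49.0 ± 15.6 CPM for KO against 25.0 ± 1.52 CPM for WT (SD, n = 3 each), a ratio of 1.96 and a log2 fold change of 0.97 (SE 0.24, 95% interval 0.42 to 1.52, adjusted p = 0.0258), with p = 0.1 in the exact two-sided permutation test. Without KO1 it was 1.21 (adjusted p = 0.000664). With any other library left out the call of *Hes1* was lost, with an adjusted p of 0.0638 without KO2, 0.0757 without KO3, and 0.103, 0.0621 and 0.0998 without WT1, WT2 and WT3. Over 14 alternatives it ranged from 4.09e-05 to 0.103.

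*Hey1* (ENSMUSG00000040289, chr3:8663359-8667256), a repressor of the Hey family, had 14.9, 37.8 and 33.4 CPM across KO1–KO3, while WT1–WT3 had 16.4, 21.7 and 22.7. KO1 was the lowest of all 6 libraries, and KO2 and KO3 were the highest. The log2 fold change was 0.50 (SE 0.33, 95% interval −0.25 to 1.25, adjusted p = 0.289), and 0.81 without KO1 (adjusted p = 0.0120) but 0.26 without KO2 (0.610). *Heyl* (ENSMUSG00000032744, chr4:123233556-123249875), a further member of that family, had 18.9, 32.4 and 19.6 CPM across WT1–WT3, compared with 18.2, 24.6 and 51.4 across KO1–KO3. Only KO3 stood out among its libraries, and WT2 was above KO1 and KO2. The log2 fold change of *Heyl* was 0.41 (SE 0.39, 95% interval −0.49 to 1.31, adjusted p = 0.473), and without KO3 it changed sign to −0.14.

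In TPM, *Hes1* was the highest of the 3 target genes in every library. It made up 65.2%, 63.9% and 58.5% of their summed TPM for KO1, KO2 and KO3, against 50.7% to 57.3% in WT, so that its share was larger in every KO library. The shares of *Hey1* and *Heyl* overlapped between genotypes.

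**Figure D2:**
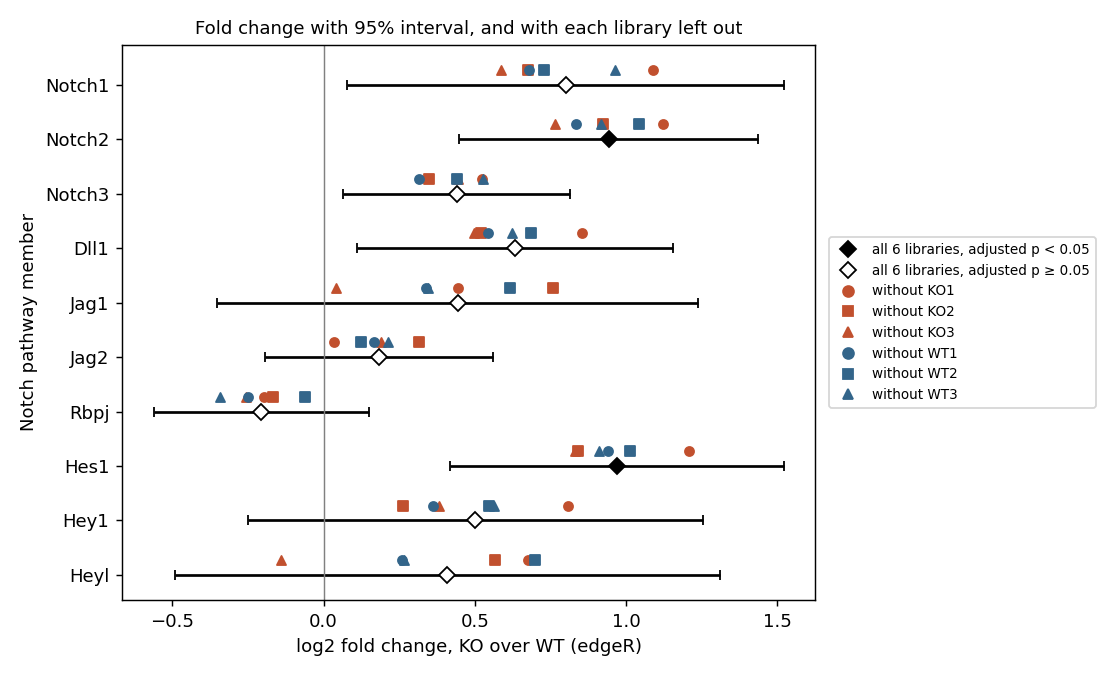
Log2 fold change of KO over WT from edgeR for each member, with its 95% interval (diamond and line, filled where the adjusted p is under 0.05) and, above it, the value with each of the 6 libraries left out. Leaving out KO1 (red circle) moves *Hes1* to 1.21 and *Notch1* to 1.09, and leaving out KO3 (red triangle) moves *Heyl* below 0.

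KO1 stood apart from KO2 and KO3 in these genes. The median difference of the members from the WT mean, in log2 CPM, was 0.14 for KO1, 0.74 for KO2 and 0.95 for KO3. The WT libraries lay at −0.20, 0.12 and 0.03, and over all genes tested the medians of the KO libraries were between 0.012 and 0.016. *Hey1* differed from the WT mean by −0.42 in KO1 and by 0.90 and 0.72 in KO2 and KO3. For *Notch1* the values in the same order were −0.05, 1.05 and 1.17, and for *Dll1* 0.03, 0.85 and 0.87. KO1 was thus at the WT level for *Notch1* and *Dll1*, and below the WT range for *Hey1*. *Notch2* was the member with the largest difference in KO1, at 0.49. KO1 was also the KO library with the highest summed level of myotube genes, given above, and the part of this in the Notch values was not tested.

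**Figure D3:**
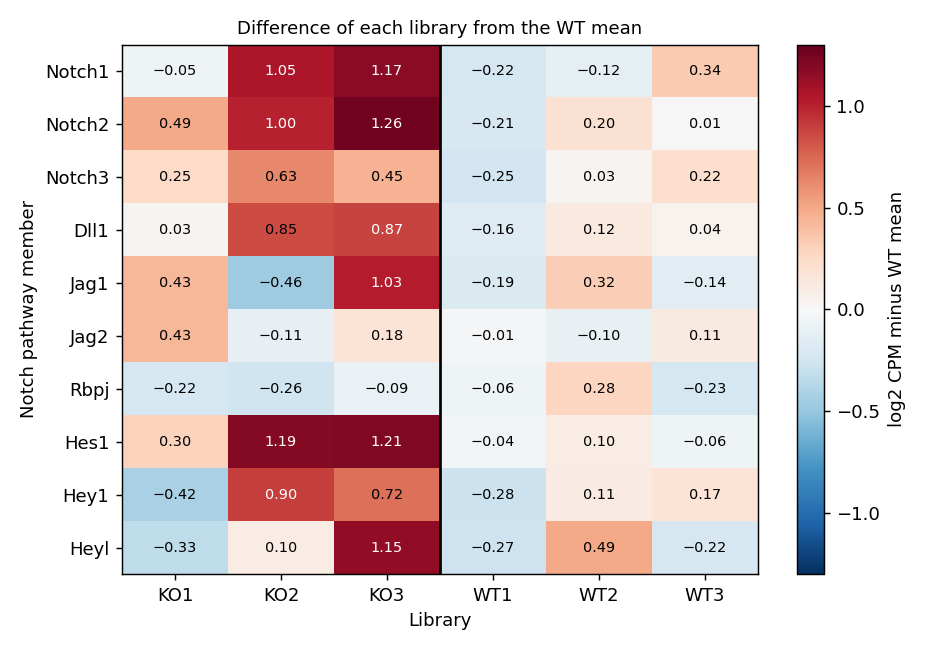
Difference of each library from the mean of the WT libraries, in log2 CPM, for each member (rows) and library (columns), on a scale from blue (lower) to red (higher). KO2 and KO3 are both at least 0.72 above the WT mean for *Notch1*, *Notch2*, *Dll1*, *Hes1* and *Hey1*, whereas KO1 lies between −0.42 and 0.49 for the same genes.

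Without KO1, 6 members were differentially expressed, all higher in KO: *Notch1*, *Notch2*, *Notch3*, *Dll1*, *Hes1* and *Hey1*. Calls over all genes rose as well, from 3361 to 4712, or 30.6% of the genes then tested. Without KO2 a single member passed, which was *Notch2*. Without WT2 it was again *Notch2* alone, and without KO3, WT1 or WT3 no member passed, where 2, 2 and 4 members had an unadjusted p under 0.05 in edgeR. Over all genes, 4931 of 14989, 4117 of 15521 and 4623 of 15272 had one in the same order. The share of all genes called also fell in each setting that kept KO1, to 17.7% without KO2, 13.9% without KO3, and 6.01%, 13.6% and 8.43% without WT1, WT2 and WT3. With all 6 libraries 5 members had an unadjusted p under 0.05 (the 3 receptors, *Dll1* and *Hes1*), as did 5781 of the 14828 genes tested.

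Across the 6 libraries, log2 CPM of *Dll1* had a Pearson's r of 0.97 with *Hes1*, 0.95 with *Notch1*, 0.94 with *Notch2* and 0.92 with *Hey1*. *Rbpj* had a negative r with 7 of the 9 other members, and *Jag1* an r of 0.0058 with *Hey1*. These values describe 6 libraries that share the genotype difference and the gap between KO1 and the other KO libraries. Among the genes whose mean log2 CPM reached 3, those most like *Notch2* were *Atad2* (r = 0.9976), a chromatin ATPase, and *Tpgs2* (r = 0.9974). Most like *Hes1* were *Txlna* (r = 0.9986) and *Pola1* (r = 0.9969), the catalytic subunit of DNA polymerase alpha. Most like *Notch3* were *Rfc5* (r = 0.9943), a subunit of the clamp loader of DNA replication, and *Tk1* (r = 0.987), a thymidine kinase of S phase. These are the highest of 9274 values over 6 libraries.

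The second measure, TPM, gave smaller differences. With limma on log2(TPM + 1), 0 of the 10 members passed an adjusted p under 0.05, against 18.2% of 12947 genes tested and 7.64% called higher. An unadjusted p under 0.05 was found for 2 members, and the matching share of all genes is not given here. Without KO1, 6 members passed in TPM as well, as did 26.1% of the genes then tested. *Hes1* had 13.1, 25.9 and 31.1 TPM across KO1–KO3, while WT1–WT3 had 11.3, 12.9 and 10.7. The genotypes did not overlap, and the difference in log2(TPM + 1) was 0.87 (SE 0.28, adjusted p = 0.0637). *Notch2* had 8.15, 11.0 and 8.75 TPM across WT1–WT3, compared with 11.6, 17.6 and 24.8 across KO1–KO3, again with no overlap, and a difference of 0.83 (SE 0.25, adjusted p = 0.0534). For *Notch3*, whose genotypes were apart in CPM, KO1 (7.36 TPM) fell below WT3 (7.46 TPM). The values are on a scale with a pseudocount of 1, which understates changes of low genes.

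In WT cells the order of mean TPM ran from *Dll1* at 17.5 ± 2.10 (SD, n = 3) through *Hes1* at 11.6 ± 1.11, *Rbpj* at 11.0 ± 2.57 and *Notch2* at 9.31 ± 1.52 to *Notch3* at 6.87 ± 0.870. *Hey1*, *Jag2*, *Notch1*, *Heyl* and *Jag1* followed, down to 3.62 ± 0.882. *Dll1* was separate from *Hes1*, and *Notch2* from *Notch3*, in every library. The ranges of all other neighbours in this order overlapped. In KO cells *Dll1* (27.2 ± 10.4 TPM, SD, n = 3), *Hes1* (23.4 ± 9.28) and *Notch2* (18.0 ± 6.62) led, and the ranges of all neighbours overlapped. Within each KO library the order *Dll1*, *Hes1*, *Notch2* held. *Rbpj*, at the third place in WT, was the fifth in KO.

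A wider list of 68 genes covered the rest of the pathway, and 55 passed the filter on low counts. Of these, 7 rose in KO, 2 fell and 46 did not pass, a share called of 16.4% beside 22.7% of all genes tested. Their median log2 fold change was 0.18, where that of all genes was 0.03. No gene of the list passed without WT1, where 14 of the 56 then tested had an unadjusted p under 0.05 in edgeR, beside 4117 of 15521 genes in all. The numbers that passed were 16, 8 and 3 without KO1, KO2 and KO3, and 5 and 2 without WT2 and WT3, beside the shares of all genes given above for the same settings. Of the called genes named below, *Hdac1*, *Spen*, *Tle4* and *Nrarp* also passed in TPM (limma). *Xxylt1* (adjusted p = 0.0534), *Mfap5* (0.0773), *Epn2* (0.0758) and *Ep300* (0.133) did not. *Gxylt1* (difference in log2(TPM + 1) 0.62, adjusted p = 0.0273) and *Psen2* (−0.55, adjusted p = 0.0470) passed in TPM and not in counts.

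**Figure D4:**
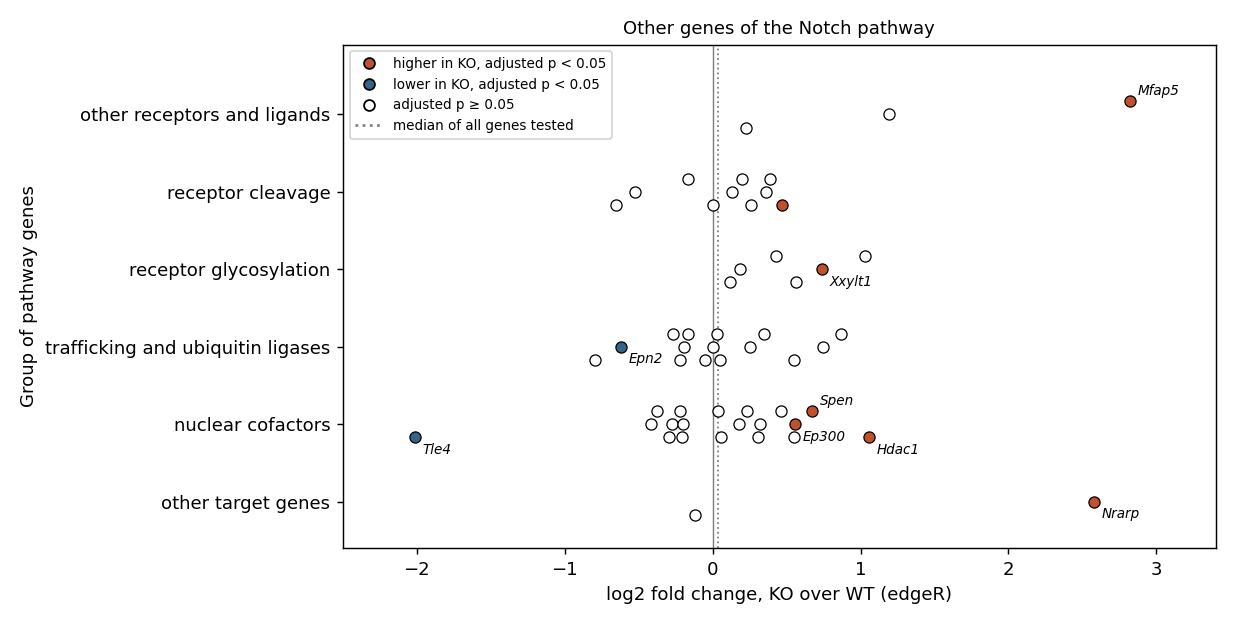
Log2 fold change of KO over WT for the 55 tested genes of the wider pathway list, in 6 groups (rows), with filled points for an adjusted p under 0.05 and a dotted line at the median of all genes tested. Of the filled points 7 lie right of 0 (red) and 2 left of it (blue), from −2.01 for *Tle4* to 2.82 for *Mfap5*.

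Other receptors and ligands were scarce. *Notch4*, the fourth receptor, known from endothelium, stayed under 1 CPM (0.839, 0.847 and 0.781 CPM across KO1–KO3, while WT1–WT3 had 0.983, 0.396 and 0.728). The Delta ligands *Dll3* and *Dll4* and the non-canonical *Dlk1* had at most 4 reads in any library and were not tested. *Mfap5*, a microfibril protein that can bind Notch receptors and ligands, had 0.752, 2.56 and 0.835 CPM across WT1–WT3, compared with 4.11, 4.35 and 20.8 across KO1–KO3. It was higher in every KO library, most of all in KO3, with a log2 fold change of 2.82 (SE 0.78, adjusted p = 0.0361) and 1.62 without KO3, where the call was lost (adjusted p = 0.0950). It was also lost without WT1 or WT3.

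Receptor cleavage was covered by 10 genes, all tested. *Adam17* (log2 fold change 0.39, SE 0.13, adjusted p = 0.0626), a protease of the first cut, and *Furin* (0.36, SE 0.16, adjusted p = 0.136), which matures the receptor, had the most reads in this group and did not pass.

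Glycosylation of Notch tunes its response to ligands. Of 7 such genes 6 were tested, all with a fold change above 1, as had 52.3% of all genes. *Xxylt1*, a xylosyltransferase that extends the sugar chain on EGF repeats, was the one called higher in counts (16.7%, beside 12.1% of all genes). It had 18.4, 24.8 and 22.7 CPM across KO1–KO3, while WT1–WT3 had 11.5, 14.1 and 13.7, with no overlap and a log2 fold change of 0.74 (SE 0.17, adjusted p = 0.0206), lost without KO3, WT1 or WT3. *Lfng*, the Lunatic fringe enzyme, had 3.96, 3.08 and 3.34 CPM across WT1–WT3, compared with 4.09, 10.8 and 6.37 across KO1–KO3, and its log2 fold change was 1.03 (SE 0.36, adjusted p = 0.0711). *Pofut1* (0.43, SE 0.15, adjusted p = 0.0739) and *Poglut1* (0.11, SE 0.12, adjusted p = 0.526), which start the chains, had the most reads and did not pass.

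Of 16 genes of trafficking and ubiquitin ligases, 15 were tested and *Epn2* fell, a share called of 6.67% beside 22.7% of all genes tested. *Epn2* encodes an epsin, an adaptor for the endocytosis of ligands. It had 57.6, 69.3 and 57.9 CPM across KO1–KO3, while WT1–WT3 had 113, 84.2 and 87.3. Every KO library was lower, with a log2 fold change of −0.62 (SE 0.15, adjusted p = 0.0268). That call was lost with library totals in place of TMM (adjusted p = 0.0607), with the regional offset (0.0851) and without KO3, WT1 or WT3. *Nedd4* (−0.27, SE 0.17, adjusted p = 0.291) and *Mib1* (−0.05, SE 0.15, adjusted p = 0.818), the ligase that drives ligand endocytosis, had the most reads of the group and did not pass.

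Nuclear cofactors held 20 genes, of which 19 were tested, 3 rose and 1 fell, a share called of 21.1% beside 22.7% of all genes tested. *Hdac1*, a histone deacetylase of corepressor complexes, had 18.3, 24.0 and 23.5 CPM across WT1–WT3, compared with 34.2, 51.5 and 51.2 across KO1–KO3, and every KO library was above every WT library. Its log2 fold change was 1.06 (SE 0.20, adjusted p = 0.0106). *Spen*, a corepressor that binds RBPJ, had 36.3, 44.9 and 45.7 CPM across KO1–KO3, while WT1–WT3 had 27.9, 25.2 and 26.4. Its libraries did not overlap, and the log2 fold change was 0.67 (SE 0.14, adjusted p = 0.0140). *Spen* lies on chromosome 4 in a stretch with a median of 0.28, and the call was lost with the regional offset (0.39, adjusted p = 0.0802) and without any 1 of the WT libraries.

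*Ep300*, a histone acetyltransferase recruited by cleaved Notch, had 26.1, 28.1 and 25.2 CPM across WT1–WT3, compared with 39.3, 34.5 and 42.8 across KO1–KO3. Every KO library was higher, with a log2 fold change of 0.56 (SE 0.13, adjusted p = 0.0240) and a call that was lost without KO3 or any WT library. *Tle4*, a Groucho corepressor that Hes proteins recruit, fell. It had 3.19, 1.17 and 1.64 CPM across KO1–KO3, while WT1–WT3 had 9.23, 7.31 and 7.57, and each KO library was below each WT library, with a log2 fold change of −2.01 (SE 0.38, adjusted p = 0.0105). The calls of *Hdac1* and *Tle4* were lost without WT1 alone (adjusted p = 0.0567 and 0.0537). The other Groucho genes of the list, *Tle1* (−0.30, SE 0.19, adjusted p = 0.295) and *Tle3* (−0.42, SE 0.20, adjusted p = 0.159), did not pass. *Ncor1* (−0.20, SE 0.13, adjusted p = 0.298) and *Hdac2* (−0.37, SE 0.14, adjusted p = 0.0939) had the most reads of the cofactors and did not pass either.

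Further target genes mostly had few reads. *Hes5*, *Hes2* and *Hes3* had at most 4 reads in a library, *Hes7* at most 9, and *Hey2* had 0 to 3 in KO and 3, 8 and 18 in WT. *Nrarp*, a feedback inhibitor induced by Notch, had 10, 13 and 20 reads for KO1, KO2 and KO3, against 2, 0 and 4 for the WT libraries. It rose by 2.58 (SE 0.75, adjusted p = 0.0429) on the log2 scale, a value that rests on few reads and was lost in DESeq2 (adjusted p = 0.0508), with the regional offset and without any 1 WT library. Without KO2 or KO3, *Nrarp* did not pass the filter on low counts. In TPM it had 1.17, 1.71 and 2.97 across KO1–KO3 and 0.179, 0.0857 and 0.319 across WT1–WT3, with no overlap. The difference of *Nrarp* in log2(TPM + 1) was 1.26 and passed the test in limma (SE 0.22, adjusted p = 0.00893). *Hes6*, a relative of *Hes1* that is known to promote myogenic differentiation, had the most reads of these genes. It had 108, 91.1 and 115 CPM across WT1–WT3, compared with 84.2, 124 and 81.6 across KO1–KO3, and its log2 fold change was −0.12 (SE 0.19, adjusted p = 0.682).

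Some members share their position with other annotated genes. *Notch2* overlaps a pair of genes on its own strand with at most 142 and 174 reads, where *Notch2* had at least 3995. *Notch1*, *Notch3*, *Dll1* and *Rbpj* overlap genes on the opposite strand with at most 40 reads in a library. Whether the counting used strand is not given in the sources used here, and reads that fit both genes of an overlap were not measured.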

How the data were processed

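Libraries of rRNA-depleted total RNA were sequenced as paired reads, 3 from KO and 3 from WT cells. The authors aligned reads with STAR and deposited raw counts per gene (featureCounts, per the submitters' processing notes), without normalization. They also deposited StringTie gene tables, from which TPM values were used and summed where a gene was listed more than once. Versions are not given in the sources used here. The methods name GRCm39 and the submitters' notes mm9, whereas 83.1% of 45153 deposited gene positions were identical to GENCODE M21 on GRCm38, which is used for positions.

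Counts were scaled by TMM, filtered with filterByExpr and tested with edgeR 4.0.16 (glmQLFit, glmQLFTest, two-sided, genotype alone, R 4.3.3), with Benjamini-Hochberg adjustment over 14828 genes and a threshold of 0.05. TPM were tested with limma 3.58.1 on log2(TPM + 1) over genes with a mean TPM of at least 0.5. Exact two-sided permutation tests of 3 against 3 cannot go below 0.1. Alternatives were DESeq2 1.42.0, other scalings and filters, a regional offset (stretches of 10 Mb with at least 15 genes), the replicate number as a block and each library left out. The members and lists were chosen with earlier results of these data known. Named genes were the members, the called genes of the wider list (1 of them is not reported here) and the 2 with the most reads in each of its groups, and the 2 genes most correlated with each member whose libraries did not overlap. *Lfng*, *Tle1*, *Tle3*, *Gxylt1*, *Psen2* and the untested genes were named after their values were seen. *Mymk* and *Mymx* were matched by gene ID. All 6 count columns were used and 0 left out. The steps were tested on simulated data.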

Additional observations from a re-analysis of the deposited data

How the results depend on the processing

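*Notch2* and *Hes1* kept their direction in all 14 alternatives of the counts and lost their calls only in some of those that left out a library. Leaving out each library in turn gave 0 to 6 members called, 933 to 4712 genes called over all, 0 to 16 genes of the wider list, and 0 to 6 members in TPM. Without a filter on low counts 4 members (the others being *Notch1* and *Dll1*) and 15 genes of the wider list were called, beside 4538 of 30252 genes in all (15.0%, against 22.7% with the filter), and the cause was not tested. Scaling by library totals moved the median of all genes to 0.15 and that of the members to 0.60, with the directions of the members as in the TMM scaling. Values that changed sign were *Jag2* with the regional offset (−0.20), *Heyl* without KO3 and *Jag1* in TPM without KO3. With each library left out in turn, *Heyl* ranged from −0.14 to 0.70 in counts and from −0.22 to 0.57 in log2(TPM + 1), and *Jag1* from −0.068 to 0.64 in log2(TPM + 1).

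Replicate numbers did not pair the libraries: deviations from the group means correlated at 0.19, −0.13 and −0.15 for numbers 1 to 3. With the replicate number as a block, 2 members were called in counts and 2 in TPM (in place of 0), 4 genes of the wider list and 2520 genes in all. Calls of the wider list lost there include *Epn2* (adjusted p = 0.0584), *Ep300* (0.0628), *Mfap5* (0.0618) and *Nrarp* (0.0579). *Nrarp* was also too low to test with a CPM of at least 1 in at least 3 libraries. Every member had at least 531 reads in each library, whereas 13 genes of the wider list were too low to test.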
